A study of Mus musculus with 6 samples.

Results

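The genes Elane, Mpo, Prtn3, Ctsg, Ms4a3 and Igsf6 mark promyelocytes and the granulocyte-monocyte progenitors before them. They were taken by symbol from the count tables of the series, which hold 48395 symbols, and all 6 are among the 16739 genes that passed the filter on low counts. RNA was sequenced from LSK cells, the lineage-negative, Sca-1-positive, c-Kit-positive fraction of marrow in which stem cells and the earliest progenitors are found, in 6 mouse libraries. Of these, 3 were labelled Hmga2 and 3 vector. Donor marrow in both groups was Mx1Cre; Jak2V617F/+, that is heterozygous for the activating Jak2 allele found in myeloproliferative neoplasms, with a Cre driven by the interferon-inducible Mx1 promoter. It came from mice primed with 5-fluorouracil and was transduced with a lentivirus that carried Hmga2 or, in the vector group, no insert. Lethally irradiated C57BL/6 recipients (2 exposures of 550 cGy) received the cells, and marrow was taken 32 weeks later. The labels call the libraries of a group biological replicates, and no group without the Jak2 allele was given. Not given in the sources used are the age of the mice, whether sorted cells were selected for the lentivirus, and whether cells of the host remained among them.

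The azurophil or primary granule is the first granule a neutrophil precursor makes, at the promyelocyte stage. Its cargo includes myeloperoxidase, which makes hypochlorous acid from hydrogen peroxide and chloride, and the related serine proteases neutrophil elastase, proteinase 3 and cathepsin G, which are made as proforms, activated by cathepsin C and stored bound to the proteoglycan serglycin. These genes are transcribed in granulocyte-monocyte progenitors under C/EBP, PU.1 and MYB factors, and their transcription stops when precursors turn to secondary granules. Ms4a3 encodes a membrane protein whose expression follows granulocyte-monocyte commitment, and Igsf6 encodes an immunoglobulin-superfamily membrane protein of myeloid cells.

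Promoter sequences of RefSeq (build GRCm38.p6, 250 bases before to 50 after the start) were found for all 6 genes. These promoters were searched on both strands for short motifs of the factors named above and of RUNX factors. Shown are those of Elane and Prtn3, which are neighbours, of Mpo, the most abundant of the 6, and of Ms4a3, which with Elane had groups that did not overlap. Capitals mark GAGGAA, the purine-rich box known to be bound by PU.1. The RefSeq starts of Elane, Prtn3, Mpo and Igsf6 lie inside the GENCODE spans given for these genes further on. Distances of motifs are counted from the RefSeq start.
Elane (chr10:79886062-79886361, plus strand): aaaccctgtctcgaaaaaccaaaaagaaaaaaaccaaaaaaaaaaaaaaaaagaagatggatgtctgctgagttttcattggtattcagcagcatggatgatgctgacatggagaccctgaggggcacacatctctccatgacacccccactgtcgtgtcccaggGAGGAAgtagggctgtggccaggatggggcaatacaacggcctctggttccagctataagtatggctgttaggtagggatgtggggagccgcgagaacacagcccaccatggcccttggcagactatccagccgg
Prtn3 (chr10:79879417-79879716, plus strand): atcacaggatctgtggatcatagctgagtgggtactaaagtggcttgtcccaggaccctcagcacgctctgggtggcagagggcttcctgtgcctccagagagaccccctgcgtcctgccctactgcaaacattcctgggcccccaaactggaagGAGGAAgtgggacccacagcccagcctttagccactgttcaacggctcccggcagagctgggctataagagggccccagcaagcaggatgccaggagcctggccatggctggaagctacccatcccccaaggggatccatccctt
Mpo (chr11:87793534-87793833, plus strand): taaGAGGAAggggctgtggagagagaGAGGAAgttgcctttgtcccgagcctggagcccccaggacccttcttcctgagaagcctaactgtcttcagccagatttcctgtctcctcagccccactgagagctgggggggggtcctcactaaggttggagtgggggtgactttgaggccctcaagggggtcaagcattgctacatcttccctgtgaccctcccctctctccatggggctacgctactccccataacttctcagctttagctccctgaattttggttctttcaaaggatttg
Ms4a3 (chr19:11640802-11641101, minus strand): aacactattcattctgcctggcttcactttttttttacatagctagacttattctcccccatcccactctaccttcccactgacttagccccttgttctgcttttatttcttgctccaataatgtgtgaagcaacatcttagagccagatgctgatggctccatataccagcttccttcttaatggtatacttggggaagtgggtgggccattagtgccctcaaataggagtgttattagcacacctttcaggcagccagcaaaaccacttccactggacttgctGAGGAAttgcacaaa
GAGGAA was present in 6 of 6 of these promoters, and in 28.3% of the 32851 promoters of the same length. In Elane and Prtn3 it began 85 and 95 bases before the start, and in Mpo 247 and 224 bases before it. Ctsg had it 216 bases before the start, Igsf6 on the minus strand with its leftmost base 39 bases before, and Ms4a3 35 bases after the start. The C/EBP motif TTNNGNAA was found in 2 of the 6 (Ms4a3 and Igsf6) and in 40.7% of all promoters, the MYB motif AACNG in 5 of 6 (not Ms4a3) and in 80.3%, and the RUNX motif TGTGGT in Ctsg alone of the 6 and in 16.8%. Matches of different motifs can overlap, and a match describes letters only.

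Total counts were 30413990 to 35471806 in the libraries labelled Hmga2 and 24818011 to 31208673 in the vector libraries. The introduced gene was checked first: Hmga2 had 2.63, 6.63 and 5.91 CPM (library-scaled counts, with TMM factors) under its own label and 5.96, 5.04 and 7.03 CPM in the vector libraries. The groups overlapped, with a log2 fold change of -0.25 (standard error 0.35, edgeR adjusted p = 0.934), so the groups are called by their labels throughout. Whether reads of the introduced Hmga2 could be counted under this symbol is not stated in the sources, which limits these values as a check of the labels. Of the genes for the antigens of the sort, Kit, which encodes c-Kit, was at 345 to 375 CPM in libraries labelled Hmga2 and at 248 to 354 CPM in vector libraries. Ly6a, which encodes Sca-1, was at 32.2 to 45.5 CPM in the libraries labelled Hmga2 and at 19.3 to 59.1 CPM in the vector libraries, lowest in vector replicate 2. Among lineage antigen genes, Cd3e, Cd5, Cd8a and Ly6g were under 1 CPM in every library and Cd4 reached 1.32 CPM in vector replicate 1. Others were present: Itgam, a myeloid integrin gene, was at 25.5 to 33.0 CPM in libraries labelled Hmga2 and at 13.6 to 33.7 CPM in vector libraries, and Ly6c1 at 5.30 to 6.47 CPM in libraries labelled Hmga2 and 7.41 to 23.4 CPM in vector libraries. Ptprc, the pan-leukocyte CD45 gene, was at 133 to 167 CPM in libraries labelled Hmga2 and at 113 to 129 CPM in vector libraries. Immunoglobulin genes took 0.674% of counts in replicate 2 labelled Hmga2 and 1.94% and 1.58% in vector replicates 1 and 3. They took 0.0661% to 0.0931% in the other 3 libraries, namely replicates 1 and 3 labelled Hmga2 and vector replicate 2. Those 3 also had the most counts of 4 Y-linked genes, 191 and 129 CPM in replicates 1 and 3 labelled Hmga2 and 21.4 CPM in vector replicate 2, against 5.24 to 6.73 CPM in the rest.

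All 6 genes had a lower mean in the libraries labelled Hmga2 than in the vector libraries, and none passed the adjusted threshold of 0.05 in the quasi-likelihood test of edgeR. Log2 fold changes, labelled Hmga2 over vector, ran from -1.50 for Elane to -0.51 for Ctsg, with a median of -0.71 beside 0.00 over all 16739 genes tested. Over all genes 0% were called by edgeR in either direction, 5.59% had an unadjusted p under 0.05 (935 genes; 3.36% with the lower level under the Hmga2 label) and 49.6% had a log2 fold change below 0. Of the 6 genes, 3 had an unadjusted p under 0.05: Elane, Prtn3 and Ms4a3. DESeq2 called Ms4a3 alone of the 6, beside 0.425% of all genes, 71 in number (0.371% lower under the Hmga2 label). Groups did not overlap for Elane and Ms4a3, 2 of the 6, where 11.2% of all genes had groups apart in either direction and 5.88% had every library labelled Hmga2 below every vector library. In bulk samples, fewer cells that express these genes and less RNA per cell cannot be told apart.

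**Figure D1:**
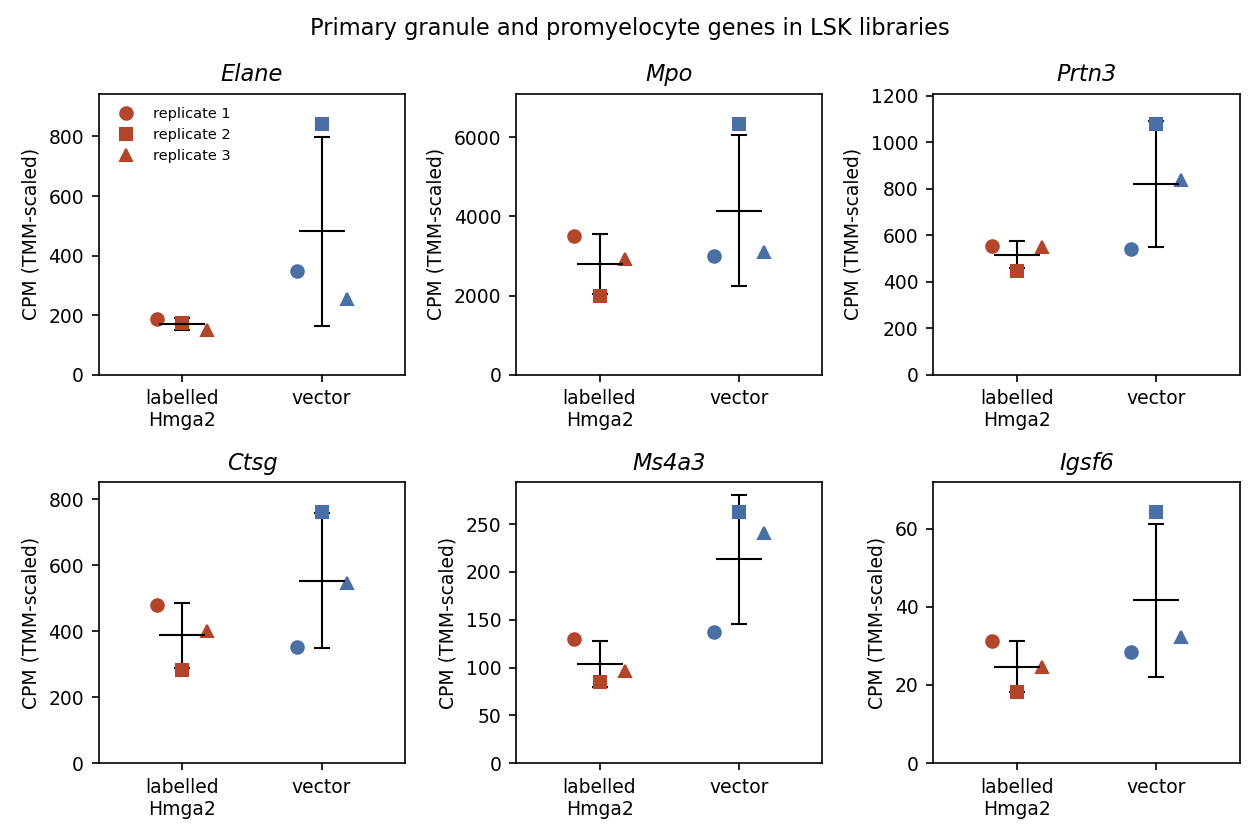
CPM of the 6 genes in each library (TMM-scaled, linear axes from 0), with libraries labelled Hmga2 on the left and vector libraries on the right of each panel; marker shape gives the replicate, and bars give the mean and SD of 3 libraries. Vector replicate 2 (square) is the highest library in all 6 panels, and the groups do not overlap for Elane and Ms4a3.

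Elane encodes neutrophil elastase, a serine protease of the primary granule that degrades matrix and bacterial proteins. The gene (ENSMUSG00000020125.7, 5 exons) lies on chromosome 10, positions 79886247 to 79888215 on mm10, plus strand. It was at 187, 173 and 149 CPM in libraries labelled Hmga2 and at 348, 843 and 253 CPM in the vector libraries. Every library labelled Hmga2 lay below every vector library, and vector replicate 2 lay 2.43-fold above the next vector library. Means were 169.9 ± 19.2 CPM in the libraries labelled Hmga2 and 481 ± 317 CPM in the vector libraries (SD, n = 3 each). This is a log2 fold change of -1.50 (standard error 0.42, 95% interval -2.49 to -0.51, unadjusted p = 0.00875 and adjusted p = 0.855 in edgeR). An exact two-sided permutation test gave p = 0.1, the smallest that 3 against 3 libraries allow. Between 5124 and 21937 reads lay behind each value, so counting error is small beside the spread between libraries.

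Prtn3 encodes proteinase 3, a close relative of elastase, and ends 3073 bases before Elane starts on the same strand. Its annotated span on chromosome 10 runs from 79874476 to 79883174, and at its left end overlaps Plppr3 on the other strand, so reads there could belong to either gene, as the sources do not state how strand was counted. It was at 553, 448 and 549 CPM in libraries labelled Hmga2 and at 539.6, 1080.3 and 839 CPM in the vector libraries. Vector replicate 1 lay below replicates 1 and 3 labelled Hmga2, so the groups overlapped. Means were 517 ± 59.5 CPM and 819.8 ± 271 CPM in libraries labelled Hmga2 and in vector libraries (SD, n = 3 each). Its log2 fold change was -0.67 (standard error 0.24, unadjusted p = 0.0274 and adjusted p = 0.855 in edgeR).

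Like Elane and Prtn3, the other tested genes within 50 kb of Elane did not pass the test. Ptbp1, which encodes a splicing repressor, had a log2 fold change of -0.06, Plppr3 of -0.07, Med16, a Mediator subunit gene, of -0.03, R3hdm4 of 0.17 and Arid3a of -0.11, all with adjusted p of 0.855 or more in edgeR. The other tested neighbours, E130317F20Rik, Gm17134, Gm26602 and Kiss1r, were under 3 CPM in every library, with log2 fold changes from -0.84 to 0.40. Groups did not overlap for R3hdm4, with the libraries labelled Hmga2 above, and for Gm26602, with those libraries below. Cfd, the complement factor D gene that starts 2638 bases beyond the end of Elane and also encodes a serine protease, ran from 0.0291 to 0.198 CPM in the libraries labelled Hmga2 and from 0.0419 to 0.284 CPM in the vector libraries and did not pass the count filter.

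Ctsg encodes cathepsin G, the chymotrypsin-like protease of the same granule. The gene lies on chromosome 14, positions 56099881 to 56102574, minus strand. It was at 478, 283 and 400.5 CPM in libraries labelled Hmga2 and at 352, 760.4 and 547 CPM in the vector libraries. Replicates 1 and 3 labelled Hmga2 lay above vector replicate 1. Its log2 fold change was -0.51 (standard error 0.30, 95% interval -1.22 to 0.19, edgeR adjusted p = 0.855).

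Mpo encodes myeloperoxidase and was among the most abundant transcripts of these libraries. Its 14 exons lie on chromosome 11, positions 87793581 to 87804413, plus strand. The level was 3505, 1987 and 2911 CPM in the libraries labelled Hmga2 and 2990.1, 6344 and 3101 CPM in the vector libraries. Replicate 1 labelled Hmga2 was above vector replicates 1 and 3, and vector replicate 2 stood 2.05-fold above the next vector library. By count, Mpo ranked 5, 22 and 9 among all symbols in replicates 1, 2 and 3 labelled Hmga2 and 10, 2 and 8 in the vector libraries. It took 0.201% to 0.350% of all counts in the libraries labelled Hmga2 and 0.298% to 0.630% in the vector libraries. The difference for Mpo was -0.57 on the log2 scale (standard error 0.34, 95% interval -1.37 to 0.24, edgeR adjusted p = 0.855).

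Ms4a3, on chromosome 19 from 11629496 to 11640851, minus strand, was the member with the smallest p. It was at 130.3, 84.6 and 96.0 CPM in libraries labelled Hmga2 and at 137, 262 and 240.2 CPM in the vector libraries. The groups did not overlap, but the gap between replicate 1 labelled Hmga2 and vector replicate 1 was narrow. On the log2 scale the fold change was -1.04 (standard error 0.27, 95% interval -1.67 to -0.41). It did not pass in edgeR (unadjusted p = 0.00561, adjusted p = 0.855) and passed in DESeq2 (adjusted p = 0.00752). Over the other alternatives, all with edgeR, its log2 fold change lay between -1.31 and -0.86 and was not called.

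Igsf6, on chromosome 7 from 121064067 to 121074572, minus strand, had the lowest level of the 6. It was at 31.1, 18.1 and 24.5 CPM in libraries labelled Hmga2 and at 28.3, 64.2 and 32.4 CPM in the vector libraries, from 557 to 1670 reads. Replicate 1 labelled Hmga2 lay above vector replicate 1. Its fold change was -0.76 in log2 units (standard error 0.34, 95% interval -1.56 to 0.04, edgeR adjusted p = 0.855). Exact permutation tests of Igsf6, Prtn3, Ctsg and Mpo gave two-sided p = 0.2, p = 0.3, p = 0.3 and p = 0.4.

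**Figure D2:**
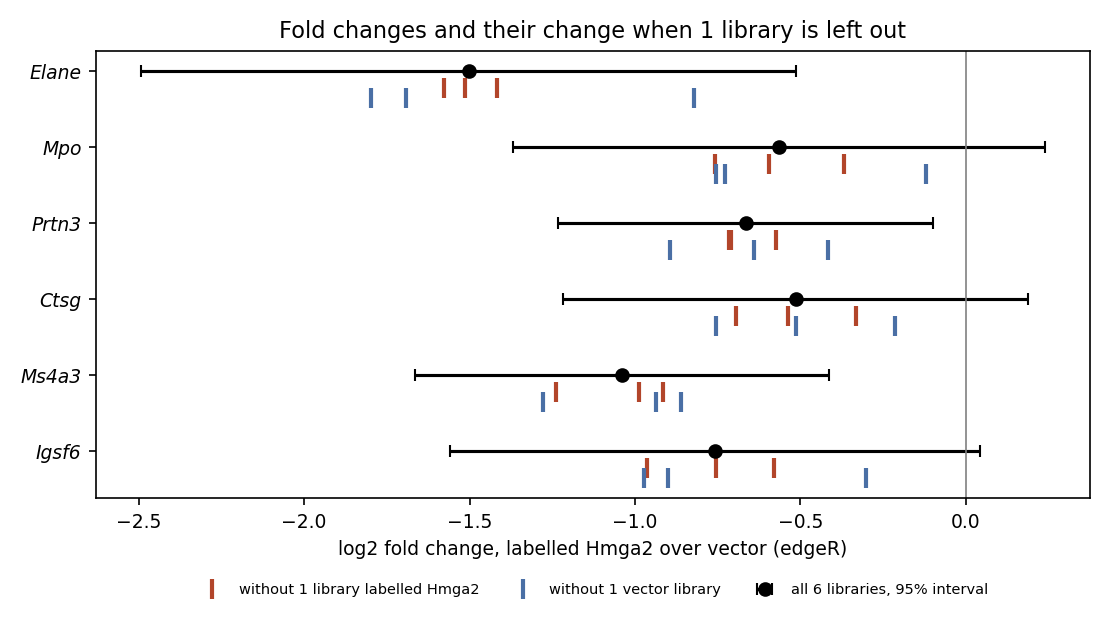
Log2 fold change of each gene, labelled Hmga2 over vector, from edgeR. Black points and bars give the value and 95% interval with all 6 libraries, and ticks give the value with 1 library left out (red, a library labelled Hmga2; blue, a vector library); for each gene the tick nearest 0 is the fit without vector replicate 2, for example -0.82 for Elane and -0.12 for Mpo.

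The size of these differences rested in large part on vector replicate 2. Without it the log2 fold change was -0.82 for Elane, -0.12 for Mpo, -0.42 for Prtn3, -0.21 for Ctsg, -0.86 for Ms4a3 and -0.30 for Igsf6, and the median was -0.36. Ms4a3 moved least. Without replicate 2 labelled Hmga2, in which 5 of the 6 genes had their lowest level, the median was -0.58. All 6 values stayed below 0 in each of the 14 alternatives run.

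The summed level of the 6 genes was 4885, 2994 and 4131 CPM in replicates 1, 2 and 3 labelled Hmga2 and 4394, 9355 and 5014 CPM in the vector libraries. Replicate 1 labelled Hmga2 thus lay above vector replicate 1. Mpo made up most of this sum. Without Mpo the sum was 1380, 1007 and 1220 CPM in the libraries labelled Hmga2 and 1404, 3011 and 1913 CPM in the vector libraries. Groups then did not overlap, with a narrow gap between replicate 1 of each label. Summed stem cell markers, 14 genes such as Hlf and Mecom, ran 438, 608 and 583 CPM in the libraries labelled Hmga2 and 665, 316 and 374 CPM in the vector libraries. The library with the highest sum of the 6 genes, vector replicate 2, had the lowest sum of stem cell markers. Summed erythroid markers, 14 genes, were at 1299 to 1457 CPM in the libraries labelled Hmga2 and at 1653 to 2292 CPM in the vector libraries. They were again highest in vector replicate 2. Of these 14 genes, 11 had negative log2 fold changes, with a median of -0.59, and DESeq2 called 3 lower. Summed eosinophil markers, 8 genes, were at 24.2 to 83.5 CPM in the libraries labelled Hmga2 and at 46.2 to 344 CPM in the vector libraries, with the ranges overlapping. Of the 7 eosinophil genes tested, 5 had negative log2 fold changes. Their median was -2.05, and -0.44 when vector replicate 1 was left out. Median log2 fold changes of the other marker lists were 0.31 for megakaryocyte, 0.38 for lymphoid progenitor and -0.09 for monocyte and macrophage genes. They were -0.21 for mast cell and basophil genes and -1.47 for B and plasma cell genes. The part of these cell types in the differences of the 6 genes was not tested.

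The 2 sets of libraries told apart by immunoglobulin counts (above and below 0.5% of counts, a split chosen after its values were seen) each held both labels. Among the immunoglobulin-rich libraries, replicate 2 labelled Hmga2 was below vector replicates 1 and 3 for all 6 genes, with log2 differences (pseudocount 0.5) from -1.09 for Ms4a3 to -0.59 for Prtn3; 27.9% of all genes lay below in this set. Among the others, replicates 1 and 3 labelled Hmga2 were both below vector replicate 2 for all 6 genes, with log2 differences from -2.33 for Elane to -0.80 for Ctsg; 37.1% of all genes lay below there. Of all genes tested, 13.4% lay below in both sets. The outcome in the second set was fixed beforehand, since its only vector library, vector replicate 2, was the highest library for all 6 genes. In the first set, replicate 2 labelled Hmga2 was the lowest of all 6 libraries for every gene but Elane. The split therefore gives no separate support for a difference. With the immunoglobulin share as a term in edgeR the median log2 fold change of the 6 genes was -1.05, and a Y-linked term gave -1.12, and 0 of the 6 passed in either fit. No test was run within either set, as each holds 1 library of one label.

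**Figure D3:**
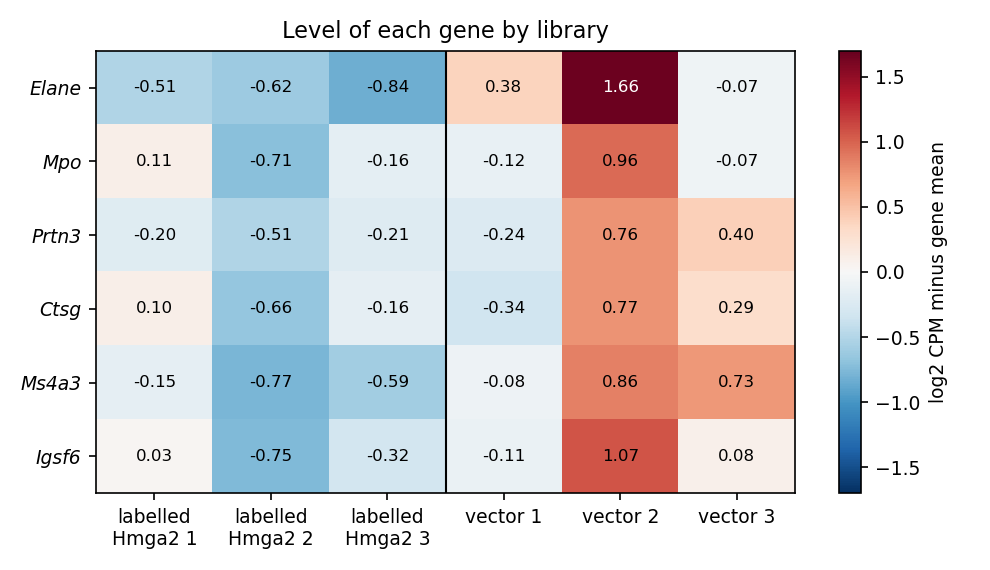
Log2 CPM (prior count of 2) of each gene minus its mean over the 6 libraries, libraries labelled Hmga2 left of the line and vector libraries right of it. Vector replicate 2 has the highest value for every gene, from 0.76 for Prtn3 to 1.66 for Elane, and replicate 2 labelled Hmga2 the lowest except for Elane.

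Relative to transcript length, Mpo led and Igsf6 came last in each library. Taking the GENCODE M21 transcript with the longest coding sequence, CPM per kilobase averaged 1019 ± 278 for Mpo, 504 ± 58.0 for Prtn3, 386 ± 97.8 for Ctsg, 173 ± 19.5 for Elane, 103 ± 23.6 for Ms4a3 and 11.3 ± 2.996 for Igsf6 in the libraries labelled Hmga2 (SD, n = 3). In the vector libraries the same levels were 1507 ± 693 for Mpo, 799.8 ± 264 for Prtn3, 552 ± 204 for Ctsg, 489 ± 322 for Elane, 211 ± 66.5 for Ms4a3 and 19.1 ± 9.03 for Igsf6. Elane was below Ctsg in all 3 libraries labelled Hmga2, whereas in vector replicates 1 and 2 it was at or above Ctsg (353 and 857 against 351 and 759 CPM per kilobase). In vector replicate 3 it was at 258 CPM per kilobase, close to Ms4a3 at 238. In the vector libraries, means of Prtn3 and Ctsg, of Ctsg and Elane, and of Elane and Ms4a3 lay closer together than the larger SD of each pair.

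The genes kept different proportions to each other across libraries. Igsf6 and Mpo moved most closely together, with 0.889, 0.912 and 0.843 Igsf6 reads per 100 Mpo reads in the libraries labelled Hmga2 and 0.947, 1.01 and 1.04 in the vector libraries, while the level of either gene ranged over more than 3-fold. Ctsg kept between 63.2 and 86.4 reads per 100 Prtn3 reads. Over all 6 libraries Elane had the widest range: its highest level was 5.65 times its lowest. The ratio was 2.41 for Prtn3, 2.68 for Ctsg, 3.10 for Ms4a3, 3.19 for Mpo and 3.54 for Igsf6. Vector replicate 2 was the highest library for each gene. Within the libraries labelled Hmga2 Elane varied least, with an SD of 11.3% of its mean, beside 11.5% (Prtn3) to 27.3% (Mpo). In the vector libraries it varied most, with 65.8% beside 31.5% (Ms4a3) to 47.2% (Igsf6). There were 5.34, 8.71 and 5.13 Elane reads per 100 Mpo reads in the libraries labelled Hmga2, and 11.6, 13.3 and 8.17 in the vector libraries. Replicate 2 labelled Hmga2 exceeded vector replicate 3 in this ratio, so the groups overlapped. The mean log2 ratio of Elane to Mpo differed by -0.80, labelled Hmga2 minus vector (exact two-sided permutation p = 0.2). Over the 5 ratios of Elane to another of the 6 genes the differences ran from -0.84 (Ctsg) to -0.30 (Ms4a3), and Benjamini-Hochberg adjusted permutation p ran from 0.333 to 0.6.

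**Figure D4:**
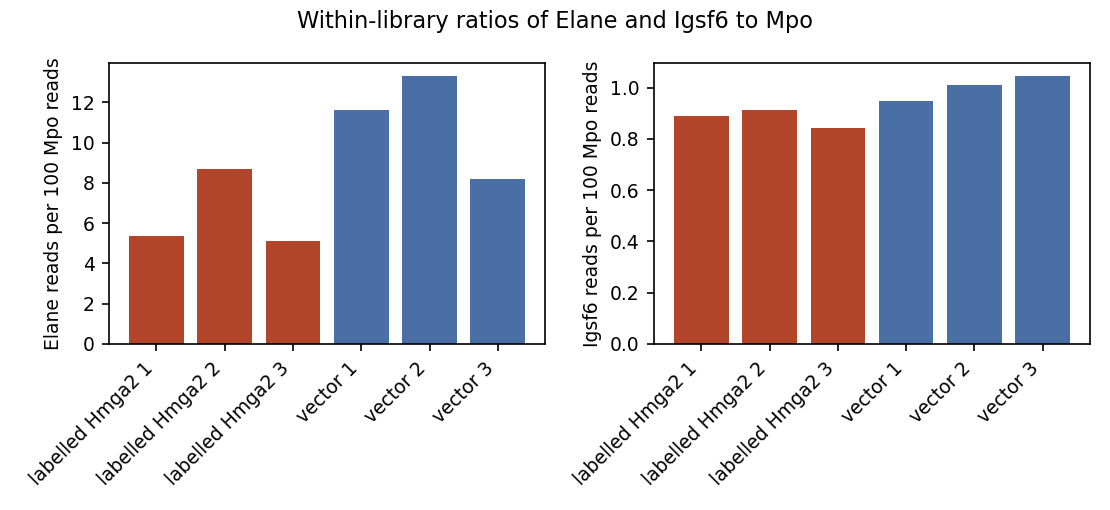
Elane reads (left) and Igsf6 reads (right) per 100 Mpo reads in each library, bars from 0, libraries labelled Hmga2 in red and vector libraries in blue. The Elane ratio spans 5.13 to 13.3 and the Igsf6 ratio 0.843 to 1.04.

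Genes that process, pack or restrain the granule proteases had list medians near 0. Of 19 genes listed for processing and packaging, all tested, 9 had positive and 10 negative log2 fold changes. Their median was -0.01, and 0 passed in edgeR or DESeq2. The list also holds Gfi1, a transcription factor gene. Cst7, encoding cystatin F, an inhibitor of cathepsin C, was at 56.0, 50.8 and 53.8 CPM in libraries labelled Hmga2 and at 56.2, 102.8 and 88.3 CPM in the vector libraries, the 1 gene of this list whose groups did not overlap. The gap between replicate 1 of each label was very narrow. Over all genes, 5.88% had every library labelled Hmga2 below every vector library. Ctsc, encoding the activating protease cathepsin C, was at 56.0 ± 7.99 CPM in libraries labelled Hmga2 and 56.4 ± 3.30 CPM in vector libraries (SD, n = 3 each). Srgn, encoding serglycin, was at 439 ± 47.4 CPM in libraries labelled Hmga2 and 431 ± 30.0 CPM in vector libraries. Prss57, a further granule serine protease gene, was at 48.6, 31.4 and 42.9 CPM in libraries labelled Hmga2 and at 38.0, 66.9 and 42.6 CPM in vector libraries. Of 13 protease inhibitor genes 9 were tested, with a median of -0.05, and 0 passed in edgeR or DESeq2. Slpi, encoding a secreted elastase inhibitor, was at 23.9, 42.2 and 23.2 CPM in libraries labelled Hmga2 and at 56.2, 31.0 and 53.0 CPM in vector libraries.

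Of 11 genes for proteins reported to be cut by these proteases, 9 were tested, with 5 positive log2 fold changes and a median of 0.10; edgeR called 0 and DESeq2 called Cxcl12 higher. Cxcl12, the chemokine that holds stem cells in the marrow, was at 2.80, 2.54 and 4.31 CPM in libraries labelled Hmga2 and at 0.221, 0.999 and 0.586 CPM in vector libraries, without overlap. Cxcr4 was at 169.8, 137.5 and 136.2 CPM in libraries labelled Hmga2 and at 120.6, 116.5 and 135.5 CPM in vector libraries, also without overlap but by a narrow gap. These were 2 of the 9 tested, beside 11.2% of all genes with groups apart in either direction.

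Genes listed as transcription factors of the granulocyte-monocyte branch went both ways. Of 17 tested, 8 had positive and 9 negative log2 fold changes, with a median of -0.16, and 0 passed in edgeR or DESeq2. The positive ones include Zfp36l2 (0.18), which encodes an RNA-binding protein, and Gata2 (0.22) and Nfe2 (0.15), which also serve other branches. The balance thus depends on the make-up of the list, and the median moved to 0.06 when vector replicate 2 was left out. Cebpd and Cebpb had log2 fold changes of -0.80 and -0.58, with groups overlapping. Cebpe, encoding the C/EBP factor needed for secondary granules, was at 4.89, 4.85 and 2.59 CPM in libraries labelled Hmga2 and at 6.90, 19.5 and 5.44 CPM in the vector libraries, with no overlap. Runx1, a core-binding factor gene, was the reverse, at 116.1, 113 and 119.5 CPM and 94.8, 105.5 and 90.3 CPM in libraries labelled Hmga2 and in vector libraries. Gfi1, which encodes a transcriptional repressor that granulocyte differentiation needs, was at 49.0, 32.7 and 38.5 CPM in libraries labelled Hmga2. In the vector libraries Gfi1 was at 34.8, 71.5 and 50.5 CPM. Cebpa was at 86.3 ± 11.3 CPM and 96.2 ± 38.8 CPM, and Spi1, which encodes PU.1, at 114 ± 16.4 CPM and 128 ± 26.1 CPM, in libraries labelled Hmga2 and in vector libraries (SD, n = 3 each).

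Of 30 granulocyte-monocyte progenitor genes 29 were tested, of which 22 had negative log2 fold changes, with a median of -0.31. edgeR called 0 of them, and DESeq2 called 2 lower, Hp and Dmkn. The median of this list was -0.08 when vector replicate 2 was left out. Ly6c2, a surface antigen gene of granulocyte-monocyte cells, was at 34.6, 30.4 and 36.7 CPM in libraries labelled Hmga2 and at 58.5, 145 and 45.3 CPM in the vector libraries. Gstm1, a glutathione transferase gene, was at 91.2, 95.4 and 82.7 CPM in libraries labelled Hmga2 and at 125, 187 and 107 CPM in vector libraries. Every library labelled Hmga2 lay below every vector library for 5 of the 29, namely these and Hp, Dmkn and Alas1, beside 5.88% of all genes. In other genes of the list the groups overlapped, for example Csf3r, the G-CSF receptor gene, at 155 ± 12.8 CPM and 144 ± 49.2 CPM, and Plac8 at 699 ± 124 CPM and 773 ± 302 CPM, in libraries labelled Hmga2 and in vector libraries. Of 25 genes of later granules and mature neutrophils 21 were tested, of which 18 had negative log2 fold changes, with a median of -0.77. DESeq2 called Ltf, Ngp and Lcn2 lower while edgeR called 0. The median of these later genes was -0.78 when vector replicate 2 was left out. Groups lay apart for 7 of these 21, each time with the libraries labelled Hmga2 below, beside 5.88% of all genes. They were Ltf, Camp, Ngp, Lcn2, Chil3, S100a8 and S100a9. Ltf was at 0.0848, 0.618 and 0.0583 CPM in libraries labelled Hmga2. In replicates 1 and 3 this is near the floor of 3 reads (0.0846 to 0.121 CPM). Lcn2, the neutrophil gelatinase-associated lipocalin gene, was at 4.01, 2.31 and 4.28 CPM in libraries labelled Hmga2 and at 5.67, 12.4 and 9.29 CPM in the vector libraries. These late genes were rare beside the primary granule genes, since their sum was 193 to 226 CPM in libraries labelled Hmga2 and 237 to 268 CPM in vector libraries. Anxa1 and Padi4 held a large part of these sums. Anxa1 was at 62.6 to 89.6 CPM in libraries labelled Hmga2 and at 81.4 to 98.1 CPM in vector libraries. For Padi4 the ranges were 44.4 to 78.5 CPM and 34.02 to 73.7 CPM.

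Genes with a profile most like the mean of the 6 over the 6 libraries were named by Pearson r of log2 CPM among 10312 genes with a mean of at least 5 CPM. They were Mrps27 (r = 0.989), G6pdx (r = 0.987), P4hb (r = 0.986), Snhg5 (r = 0.985), Immt (r = 0.983) and Cdk16 (r = 0.983). These r values describe shape over 6 libraries that share the groups and the high vector replicate 2. The sizes differed, as log2 fold changes of the 6 lay between -0.28 and -0.07. P4hb, encoding a protein disulfide isomerase, was at 747, 631 and 691 CPM in libraries labelled Hmga2 and at 701, 957 and 779 CPM in the vector libraries. Among the 6 granule and promyelocyte genes themselves, r ran from 0.697 between Elane and Ctsg to 0.985 between Mpo and Igsf6.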

How the data were processed

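Expected counts, that is estimated read counts per gene symbol that need not be whole, were deposited by the authors, 1 file per library. The submitters' processing notes name Partek 3.0, Bowtie2 and the build mm10. Counter, annotation and strandedness: not given in the sources used here. After rounding, genes were compared in R 4.3.3 by edgeR 4.0.16 (filterByExpr, TMM factors, quasi-likelihood F test on group, Benjamini-Hochberg adjustment over 16739 genes, threshold 0.05), and with DESeq2 1.42.0 as an alternative. Standard errors came from the F statistic. CPM values use TMM-scaled totals; a floor of 3 reads, which covers counting error only, is 0.0846 to 0.121 CPM. Chi-square over degrees of freedom between replicates was 24.8 to 56.9, beyond sampling noise. Steps were tested on simulated counts. Positions are from GENCODE M21 on the same build.

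Members, lists and tests were chosen with earlier results of these data known. Named genes are the 6 members, Hmga2, up to 4 list genes with the smallest p, Elane's neighbours within 50 kb and the 6 most alike. Gfi1, Cebpa, Spi1, Zfp36l2, Gata2, Nfe2, Ctsc, Srgn, Prss57, Csf3r, Plac8, Alas1, Camp, S100a8, S100a9, Anxa1, Padi4 and Ly6a were chosen after their values were seen. So were the stem cell and lineage genes named. Alternatives were a replicate block, other size factors, no count filter, DESeq2, each library left out, immunoglobulin genes left out, and terms for immunoglobulin share and Y-linked genes.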

Additional observations from a re-analysis of the deposited data

How the results depend on the processing

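All 6 member genes kept a log2 fold change below 0 under each of the 14 alternatives run, and no alternative with edgeR called any of them. With DESeq2, 1 member was called, Ms4a3 (log2 fold change -1.04, adjusted p = 0.00752; with edgeR its adjusted p ran up to 0.9997), and 71 genes in all, against 0 in edgeR with the filter and group alone. With no count filter edgeR called 1 gene, Mt1, and a Y-linked term gave 1 gene, Ighv1-78; the cause was not tested. Leaving out 1 library moved the median of the members between -0.93 and -0.36, Elane between -1.80 and -0.82, Mpo between -0.76 and -0.12, Prtn3 between -0.89 and -0.42, Ctsg between -0.76 and -0.21, Ms4a3 between -1.28 and -0.86 and Igsf6 between -0.97 and -0.30. Hmga2 itself was at 0.063 without Hmga2 replicate 1 (between -0.49 and 0.063 over all libraries left out) and at 0.12 under the Y-linked term, against -0.25; the cause was not tested.

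The replicate block gave 0 calls, a member median of -0.65 and Elane at -1.31. Same-numbered libraries did not deviate together (r of -0.21, -0.50 and -0.26), and no library correlated best with its own number, so the numbers were not taken as pairs. With 3 libraries per group, the spread between libraries was wide beside counting error for all 6 genes.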
